A study of Mus musculus with 84 samples.

Results

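The genes described here are 43 splicing factors, taken by symbol from the 18909 genes with read counts in this study of mouse cell reprogramming. They are every gene whose symbol is Srsf followed by a number or begins with Hnrnp, together with Tra2a, Tra2b, Son, Mbnl1, Mbnl2, Mbnl3, Ptbp1, Ptbp2, Celf1, Rbfox2, Rbm47 and U2af1. By role they divide into 14 SR and SR-related genes (the Srsf genes, Tra2a, Tra2b and Son), 20 hnRNP genes, 8 other regulators and U2af1. In all, 42 of the 43 had enough reads to be tested, and Srsf12 was too low. Expression was measured by STRT RNA-seq, a protocol that reads the 5′ tag of each transcript. There were 10 groups with 3 replicates each. The question of the study was how a constitutively active form of the TGF-β signal transducer Smad3 (Smad3CA) affects reprogramming to induced pluripotent stem cells.

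The starting group was wild-type mouse embryonic fibroblasts (MEFs) of 129 background, grown with FGF2 and heparin and without LIF. The end point was embryonic stem cells (ESCs) of the TNG MKOS line, which is 1 line. The reprogramming cells were transgenic MEFs with a Nanog-GFP reporter that disrupts 1 Nanog allele and a transgene that expresses the MKOS factors (c-Myc, Klf4, Oct4, Sox2) and mOrange under control of doxycycline, mixed with wild-type MEFs. They were infected with a retrovirus that expressed a blue fluorescent protein (Cont) or Smad3CA (+Sm3CA), cultured in ESC medium with LIF, vitamin C and 300 ng/ml doxycycline, and sorted for mOrange after 3, 6, 8 or 10 days. MEFs and ESCs were not infected. Cont cells therefore differed from MEFs also in genotype, vector, medium and sorting for mOrange, which cannot be told apart from MKOS. From ESCs they differed also in vector, vitamin C, doxycycline and sorting for mOrange.

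Splicing factors decide which exons of a pre-mRNA are joined. SR proteins carry domains rich in arginine and serine and mostly bind exonic enhancers to recruit the spliceosome, whereas many hnRNP proteins coat pre-mRNA and often oppose exon inclusion. Muscleblind (Mbnl) proteins are known to favour splicing patterns of differentiated cells over those of pluripotent cells, Ptbp1 and Ptbp2 bind pyrimidine-rich tracts and repress exons, Rbfox2 binds next to regulated exons, and U2af1 recognises the end of the intron at the 3′ splice site.

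Single libraries held 1008596 to 2296059 reads. Mitochondrial transcripts took 8.14% to 9.09% of the reads in MEFs and 13.5% to 24.3% elsewhere, with the highest share in +Sm3CA day 10. ESC replicate 2 stood apart: its mean correlation with the other ESC libraries over genes was 0.884, against 0.913 to 0.968 for the other 29 libraries, and 21 of the 43 splicing factors were more than 1.5 times as high in it as in the highest other ESC library, while 7 were below the lowest by the same factor. Total counts of splicing factors called in ESCs are therefore given with and without ESC replicate 2. So are named values that it moved by over 1.5 times in fold and calls that it ended. Counts by role and counts of other splicing genes include it. Smad3 transcripts, which include the vector, averaged 133 ± 48.0 normalized counts in +Sm3CA and 10.9 ± 6.99 in Cont on day 3 (SD, n = 3 each). By day 10 the excess was smaller, at 41.6 ± 7.81 in +Sm3CA and 20.6 ± 5.37 in Cont, still without overlap. This day 10 difference of 1.02 ± 0.37 (SE) on the log2 scale did not pass (edgeR adjusted p = 0.170). Smad3 was called higher in +Sm3CA at the 3 earlier time points, though the day 6 call was lost under 4 of 13 alternatives. The labelled cell types had their markers: the sum of 7 fibroblast genes was 3814 to 5392 in MEFs and 2.74 to 10.8 in ESCs, where Col1a2 and Col3a1 were at 0, and the sum of 7 pluripotency genes was 8.89 to 11.9 in MEFs and 28250 to 53570 in ESCs. Transcripts of 5 macrophage genes were present in MEFs (457 to 1912) and in all reprogramming groups (299 to 2576), and low in ESCs (12.9 to 34.3).

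The stretches upstream of transcription starts are shown for 3 members with 1 annotated start each, Hnrnpd and Tra2a, which had the largest rises from MEFs to ESCs among such genes, and Mbnl2, which had the largest fall. Each is the 250 bases before the RefSeq start in GRCm38.p6, 5′ to 3′ on the gene's strand: chr5:99978939-99979188, minus strand, for Hnrnpd, chr6:49264053-49264302, minus strand, for Tra2a, and chr14:120275419-120275668, plus strand, for Mbnl2. Capitals mark matches on either strand to the GC box GGGCGG, the ETS-type motif CCGGAAG and the E box CACGTG.
Hnrnpd: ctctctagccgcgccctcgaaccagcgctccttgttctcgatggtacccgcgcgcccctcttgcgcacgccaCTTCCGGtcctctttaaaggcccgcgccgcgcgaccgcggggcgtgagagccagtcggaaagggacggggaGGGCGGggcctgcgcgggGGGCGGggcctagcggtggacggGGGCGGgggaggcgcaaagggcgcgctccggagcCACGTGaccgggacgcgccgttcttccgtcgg
Tra2a: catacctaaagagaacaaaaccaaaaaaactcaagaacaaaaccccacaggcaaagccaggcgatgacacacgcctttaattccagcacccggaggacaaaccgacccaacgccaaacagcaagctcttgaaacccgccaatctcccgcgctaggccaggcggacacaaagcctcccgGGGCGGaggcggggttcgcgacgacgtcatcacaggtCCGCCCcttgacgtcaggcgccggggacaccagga
Mbnl2: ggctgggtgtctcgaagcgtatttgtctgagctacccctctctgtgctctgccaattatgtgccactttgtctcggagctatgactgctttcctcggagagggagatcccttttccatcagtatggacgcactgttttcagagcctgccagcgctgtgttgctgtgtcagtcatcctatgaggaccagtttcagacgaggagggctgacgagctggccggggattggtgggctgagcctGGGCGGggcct
All 3 windows hold a GC box, and that of Hnrnpd also holds the ETS-type motif and the E box. RefSeq gave 56 starts for 40 of the 43 splicing factors. GGGCGG was found in 75.0% of these windows and in 32.7% of all 32851 windows in the table, CCGGAAG in 16.1% and 6.91%, CACGTG in 8.93% and 6.02%, and the TATA motif TATAAA in 7.14% and 12.4%. Median GC content was 65.0% for the splicing factors and 52.4% for all windows. These are matches of letters and not measured binding.

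Across the 10 groups, 35 of the 42 tested splicing factors had their highest mean in ESCs, as did 26.4% of all genes tested. The lowest mean was in MEFs for 12, as for 23.6% of all genes. These means include ESC replicate 2, and the counts were not made without it. For Srsf1, for example, ESC replicates 1 and 3 were at 313 and 311, below the +Sm3CA day 6 mean of 322. As a share of all reads, the 43 genes together took 0.515% to 0.622% in MEFs, medians of 0.574% to 0.681% in the reprogramming groups, and 0.853% to 0.930% in ESCs. The ESC libraries were thus above every other library, and the MEF libraries were below all +Sm3CA libraries of days 6 and 10 (0.635% to 0.716%) and overlapped the other reprogramming groups. All reads here include mitochondrial ones, which took 8.14% to 9.09% in MEFs and 13.5% to 24.3% in the other groups. Shares of the remaining reads were not computed, so the stated overlaps hold for all reads only. In bulk RNA, a change in the number of cells of a type and a change in RNA per cell cannot be told apart.

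**Figure D1:**
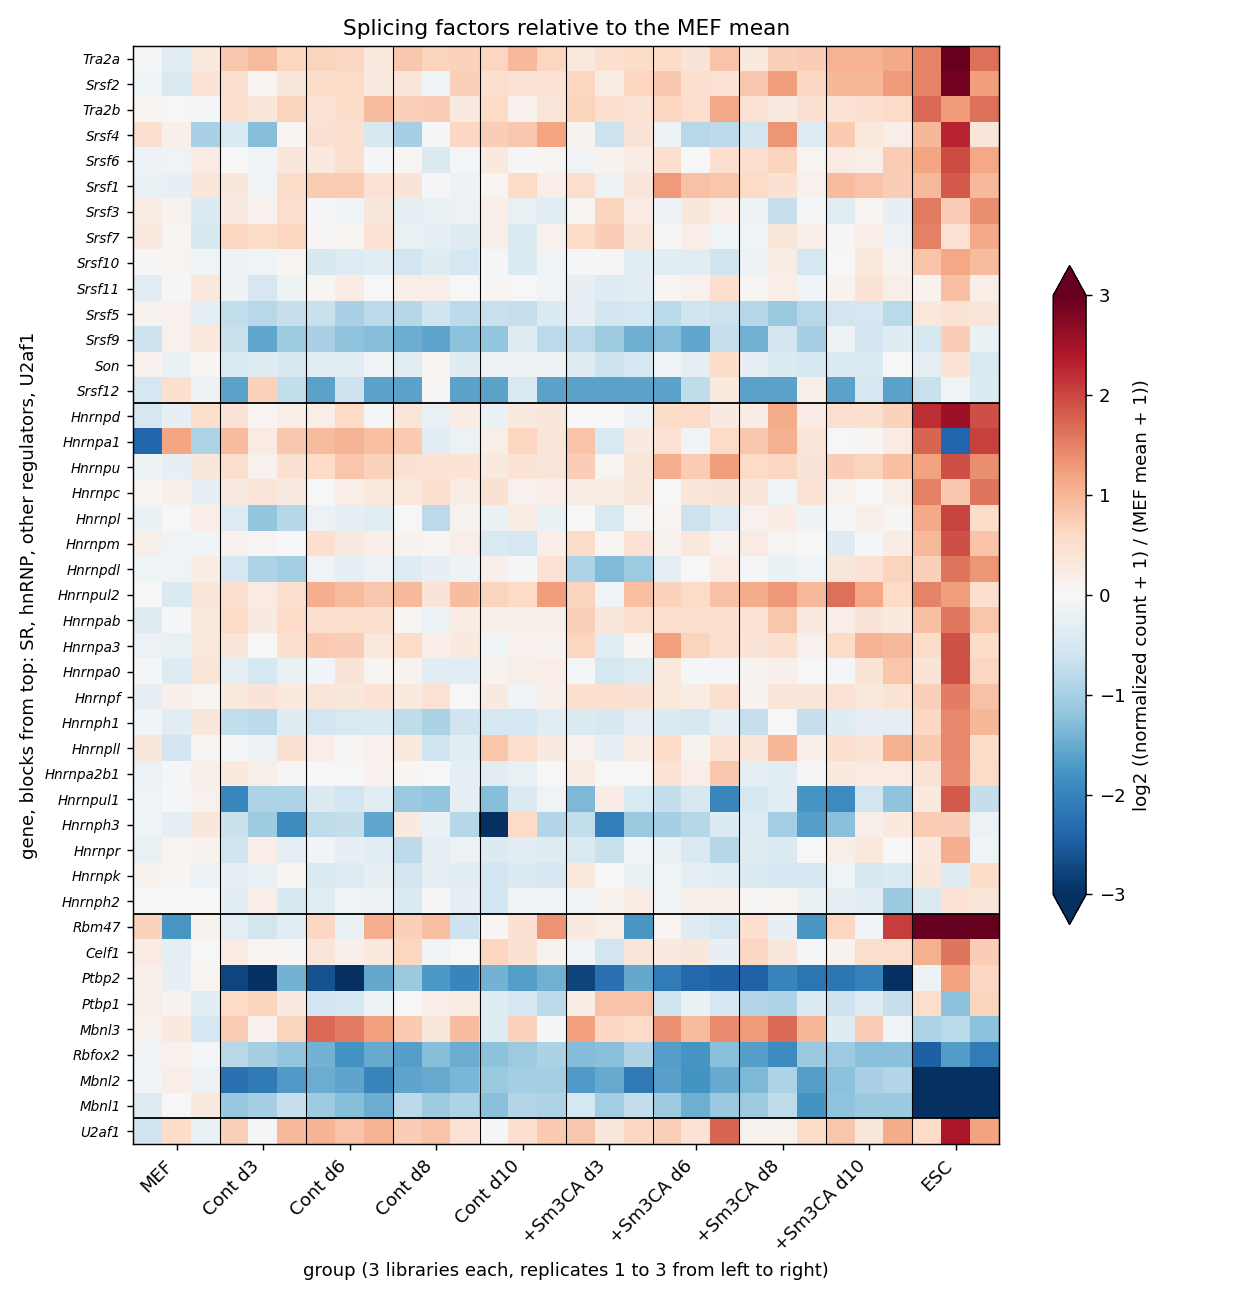
Level of each of the 43 splicing factors (rows, in blocks by role) in each of the 30 libraries (columns, 3 per group), as log2 of the normalized count plus 1 over the MEF mean plus 1. The SR and hnRNP blocks are mostly highest in the ESC columns, while Mbnl1, Mbnl2 and Rbfox2 are lower in all groups than in MEFs.

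ESCs were compared with MEFs as references for the end and the start of reprogramming. These MEFs were not the transgenic cells that were reprogrammed, and the ESCs were not taken from the reprogramming series. The groups differed also in genotype and medium, which cannot be told apart from cell type. Of 42 splicing factors tested, 29 were higher and 3 lower in ESCs at an adjusted p under 0.05 (edgeR quasi-likelihood test, Benjamini-Hochberg over 10979 genes), and 10 were not called. Among all genes tested, 59.6% were called, 29.1% higher and 30.5% lower. The median log2 fold change was 1.20 for the splicing factors and 0.00 for all genes. For 26 splicing factors all ESC libraries were above all MEF libraries, and for 4 they were below, against a background of 24.1% and 31.1% of genes. Without ESC replicate 2, 29 were again called higher and 3 lower, 30 of the 32 calls were kept, and the median log2 fold change was 0.945.

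SR genes were called higher in 11 of 13 tested and lower in 0, with a median log2 fold change of 1.38. Tra2a, which promotes exon inclusion together with its paralog Tra2b, had normalized counts of 51.1, 42.3 and 65.7 in MEFs and 152, 426 and 168 (replicates 1 to 3) in ESCs, and rose by a log2 fold change of 2.27 ± 0.26 (SE; edgeR adjusted p = 5.61e-10). Every ESC library was above every MEF library, and replicate 2 was the highest. The log2 fold change of Tra2a was 1.69 without that library. Tra2b was at 206, 192 and 187 in MEFs and 639, 471 and 613 in ESCs, and rose by 1.66 ± 0.20 on the log2 scale. For Tra2b, replicate 2 was the lowest ESC library.

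Srsf2 (SC35), a classical SR protein of nuclear speckles, had 86.7, 69.5 and 126 normalized counts in MEFs and 266, 708 and 228 in ESCs. Its log2 fold change was 2.13 ± 0.28 with all libraries and 1.50 without ESC replicate 2, a difference of over 1.5 times in fold. Srsf3 was at 1120, 1029 and 722 in MEFs and 2808, 1602 and 2514 in ESCs (log2 fold change 1.38 ± 0.23), and Srsf7 at 666, 571 and 388 against 1556, 733 and 1192 (1.21 ± 0.23). Both SR genes had their lowest ESC value in replicate 2, and it was above all MEF libraries. Srsf6 (1.56), Srsf1 (1.40) and Srsf10 (1.09) rose as well on the log2 scale. Smaller rises of Srsf11 (0.51) and Srsf5 (0.46), and that of the low-count Srsf4 (1.59), were lost under at least 1 alternative, Srsf4 and Srsf11 among them without ESC replicate 2 (log2 fold changes 0.96 and 0.26). The 2 SR genes not called were Srsf9, at 37.8, 65.1 and 74.3 in MEFs and 42.0, 99.3 and 51.4 in ESCs, and Son, a large nuclear speckle protein, at 894, 704 and 843 against 660, 1084 and 597.

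Among hnRNP genes, 15 of 20 were called higher and 0 lower, with a median of 1.20. Hnrnpd (AUF1), which binds AU-rich elements, had 36.7, 44.5 and 76.9 normalized counts in MEFs and 248, 316 and 203 in ESCs, a log2 fold change of 2.34 ± 0.26 (edgeR adjusted p = 2.48e-10). The groups did not overlap, and the log2 fold change was 2.19 without ESC replicate 2. Its close paralogs Hnrnpab and Hnrnpdl rose by 1.22 ± 0.20 and 1.33 ± 0.21 on the log2 scale.

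Hnrnpu, a chromatin and RNA scaffold protein, was at 279, 263 and 393 in MEFs and 717, 1194 and 823 in ESCs (log2 fold change 1.62 ± 0.21), and Hnrnpc, which binds uridine tracts, at 661, 697 and 526 against 1803, 1095 and 1913 (1.46 ± 0.21). Hnrnpl and its paralog Hnrnpll rose by 1.44 and 1.06, Hnrnpm by 1.41, and Hnrnpul2 by 1.25 on the log2 scale, while the paralog Hnrnpul1 was not called: it was at 12.2, 13.0 and 14.7 in MEFs and 16.4, 50.6 and 7.71 in ESCs. Its log2 fold change was 0.02 without ESC replicate 2, and it was called at 1.33 without ESC replicate 3. In the Hnrnpf and Hnrnph family, which binds runs of G, Hnrnpf (1.16) and Hnrnph1 (1.14) rose, and the log2 fold changes of Hnrnph2 (0.23) and Hnrnph3 (0.60) did not pass. Hnrnpr (0.56) and Hnrnpk (0.32) were not called either, though Hnrnpr was called at 0.80 without ESC replicate 3. Hnrnpk was at 912, 875 and 740 in MEFs and 1063, 650 and 1229 in ESCs, with the MEF range inside the ESC range, and was called at 0.56 without ESC replicate 2 (edgeR adjusted p = 0.00732, within a range of 0.00732 to 0.594 over the alternatives).

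In the Hnrnpa family, Hnrnpa0 (1.19), Hnrnpa2b1 (0.95) and Hnrnpa3 (1.21) rose on the log2 scale. These 3 depended on ESC replicate 2 in size, with 0.62, 0.62 and 0.67 without it. Hnrnpa1 had 0, 10.8 and 1.73 normalized counts in MEFs and 16.4, 0 and 20.6 in ESCs, so that the groups overlapped. Its call (1.76 ± 0.72, edgeR adjusted p = 0.0343) was lost under 6 of 11 alternatives, and the log2 fold change was 3.69 without MEF replicate 2. In the first 200 bases of its transcripts, 63.2% of the 40-base words occur in transcripts of 8 other genes, and 85.8% of those of Hnrnpa3 occur in 38 others, so reads of these genes could have been assigned elsewhere or dropped. The other members with more than 10% of such words were U2af1 (39.7%), Hnrnpm (18.9%), Srsf3 (16.8%), Hnrnpk (14.7%), Hnrnpa2b1 (10.7%) and Tra2b (10.2%). A further source of uncertainty is that exons of 15 members overlap a gene on the opposite strand and those of 4 a gene on the same strand. Whether the counting used strand is not given in the sources used here.

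The 8 other regulators were split, with 2 called higher, 3 lower and 3 not called. These counts are near the shares of all genes (29.1% higher, 30.5% lower). Mbnl1 had 144, 190 and 231 normalized counts in MEFs and 6.39, 3.61 and 9.001 in ESCs, which rest on 2 to 7 reads per ESC library. It fell by 4.72 ± 0.33 on the log2 scale (edgeR adjusted p = 4.56e-16). Mbnl2 had 372, 455 and 353 in MEFs and 22.8, 37.9 and 23.1 in ESCs, and it fell by 3.76 ± 0.25 on the log2 scale (edgeR adjusted p = 7.34e-17). All ESC libraries of both genes were far below all MEF libraries. Mbnl3, whose gene lies on the X chromosome, was at 17.8, 20.6 and 11.2 in MEFs and 8.22, 9.03 and 6.43 in ESCs, which did not overlap. Its log2 fold change of -0.95 ± 0.43 did not pass (edgeR adjusted p = 0.0577), and it was called with DESeq2's size factors, by the DESeq2 Wald test and without MEF replicate 3.

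Rbfox2 was at 154, 178 and 156 in MEFs and 29.2, 50.6 and 37.3 in ESCs, with no overlap, and it fell by 2.01 ± 0.24 on the log2 scale. Rbm47, an RNA-binding cofactor of Apob mRNA editing, had 4, 0 and 3 reads in the MEF libraries and 55, 20 and 28 in the ESC libraries. Its normalized counts were 4.44, 0 and 2.59 against 50.2, 36.1 and 36.0, a log2 fold change of 4.16 ± 0.74 (edgeR adjusted p = 6.11e-06) whose size depends on few MEF reads and was 4.81 without MEF replicate 1. Celf1, which binds GU-rich elements, rose by 1.26 ± 0.25.

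The PTB paralogs were not called between ESCs and MEFs. Ptbp1 was at 378, 359 and 269 in MEFs and 487, 143 and 536 in ESCs, so that replicate 2 was below all MEF libraries and the other ESC libraries above them. The log2 fold change was 0.34 ± 0.27, and without replicate 2 it was 0.73 and passed (edgeR adjusted p = 0.00238, within a range of 0.00238 to 0.859 over the alternatives). Ptbp2 was at 53.3, 40.2 and 49.3 in MEFs and 42.9, 112 and 73.3 in ESCs, which overlapped, and was called without ESC replicate 1 (log2 fold change 1.00, edgeR adjusted p = 0.0310, within a range of 0.0310 to 0.430 over the alternatives). U2af1 had 15.6, 35.8 and 20.7 in MEFs and 36.5, 136 and 56.6 in ESCs, with a log2 fold change of 1.68 ± 0.37, or 1.05 without ESC replicate 2.

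**Figure D2:**
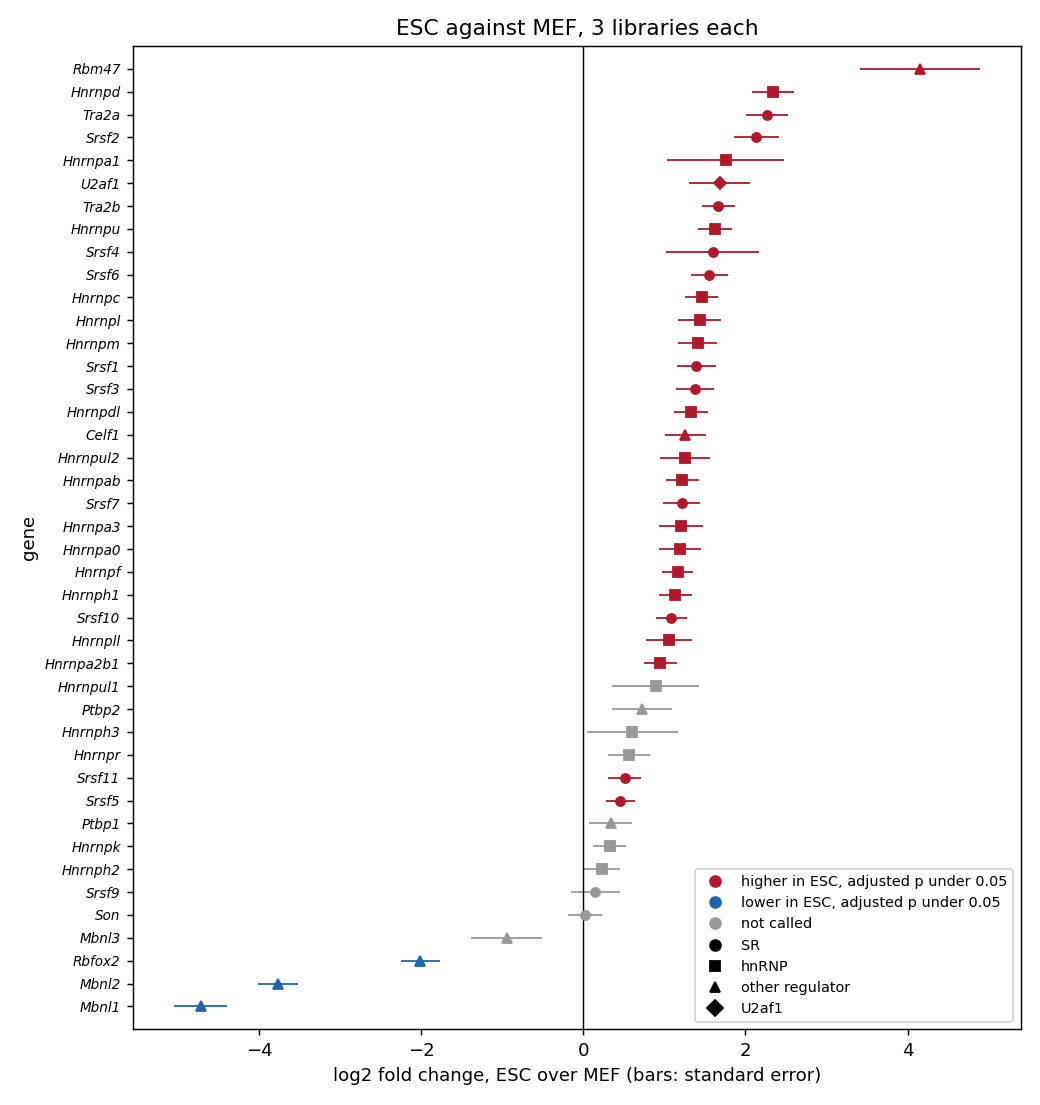
Log2 fold change between ESCs and MEFs (horizontal axis, bars are standard errors, 3 libraries per group) for the 42 tested splicing factors, with marker shape for role and colour for the call at an adjusted p under 0.05. Calls in the SR and hnRNP groups are all to the right of 0, and Mbnl1, Mbnl2 and Rbfox2 are the 3 calls to the left.

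Other splicing genes were taken from lists of textbook members. Of 65 core spliceosome genes, 62 were tested, and 51 were called higher and 1 (Bud31, -1.19) lower in ESCs, with a median log2 fold change of 1.11. Of 8 kinases that phosphorylate SR proteins, 7 were tested and 2 were called, both higher (Clk1, 0.98, and Prpf4b, 0.62). This count is near the 29.1% of all genes called higher. Both kinase calls were lost with fewer libraries in the fit and without ESC replicate 3. Of 33 further regulators, 30 were tested, with 14 higher and 5 lower. Esrp1, an epithelial splicing regulator, had 0 reads in all MEF libraries and 33.8, 28.9 and 48.9 normalized counts in ESCs, at least 12.2-fold higher when 3 reads per MEF library are taken as the floor. Celf2, a paralog of Celf1, went the other way, from 93.3, 66.2 and 68.3 in MEFs to 8.22, 21.7 and 3.86 in ESCs (log2 fold change -2.79 ± 0.40, or -3.43 without ESC replicate 2).

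By day 3 of control reprogramming, 12 of the 42 splicing factors differed from MEFs, 5 higher and 7 lower. Among all genes, 43.5% were called, 22.6% higher and 20.9% lower. The median log2 fold change was 0.21 for the splicing factors and 0.00 for all genes. With DESeq2's size factors, which moved the median of all genes by -0.10, the calls were 4 higher and 9 lower. This comparison shares the MEF libraries with that of ESCs and MEFs, so the 2 sets of fold changes are not independent.

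The largest falls were those of Ptbp2 and Mbnl2. Ptbp2, known for its expression in neural precursors, was at 6.24, 3.89 and 17.1 on day 3 of Cont, below the MEF values of 40.2 to 53.3, a log2 fold change of -2.18 ± 0.44 (edgeR adjusted p = 7.93e-05) that was -3.09 without day 3 replicate 3. Mbnl2 was at 82.9, 89.5 and 121, a log2 fold change of -1.88 ± 0.21 (edgeR adjusted p = 1.05e-09), and Mbnl1 at 84.7, 94.7 and 116 (-0.82 ± 0.23). Rbfox2 was at 90.9, 81.7 and 70.7 (-0.89 ± 0.22). None of the day 3 libraries reached the MEF range for these 4 genes. Ptbp1, at 507, 536 and 404, was above all MEF libraries, with a log2 fold change of 0.64 ± 0.26 that passed narrowly (edgeR adjusted p = 0.0448) and was lost under 10 of 13 alternatives. Mbnl3, at 28.5, 18.2 and 26.8, overlapped MEFs. The call of Mbnl1 was lost with 1 well per library.

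In the SR group, Tra2a was at 93.6, 102 and 83.7 on day 3, above all MEF libraries, and rose by 0.92 ± 0.26 on the log2 scale. Tra2b (0.64 ± 0.20) and Srsf7 (0.74 ± 0.23) rose as well. Srsf5 was at 284, 268 and 295, below the MEF libraries at 517, 521 and 396, and fell by 0.64 ± 0.18 on the log2 scale, and Srsf9 fell by 0.95 ± 0.32. In the hnRNP group the calls were 1 rise, Hnrnpab (0.61 ± 0.20), and 1 fall, Hnrnpdl (-0.71 ± 0.22), of 20 genes. Without MEF replicate 3 the calls of Srsf7, Srsf9 and Hnrnpdl were lost, without day 3 replicate 2 that of Srsf9, without day 3 replicate 3 that of Tra2b, and without any of 4 single libraries (MEF replicates 1 and 2, day 3 replicates 1 and 3) that of Hnrnpab. The core spliceosome list had 29 genes called higher and 1 lower of 62, with a median of 0.62. Beside these counts and those of the hnRNP group, 22.6% of all genes were called higher and 20.9% lower.

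From day 3 to day 10 of control reprogramming, 4 splicing factors were called, 2 higher and 2 lower, against 19.0% of all genes (10.7% higher, 8.35% lower), and the median log2 fold change was -0.05 for the splicing factors and 0.08 for all genes. Samples of day 10 sat in other rows of the plate than those of day 3 and had 2 wells instead of 3, so day and plate row cannot be told apart. Hnrnpdl, an hnRNP D-like protein, had 74.9, 57.1 and 52.0 normalized counts on day 3 and 121, 106 and 147 on day 10, with no overlap, and rose by 1.00 ± 0.22 on the log2 scale (edgeR adjusted p = 0.000996). Mbnl2 had 183, 192 and 193 on day 10, above all day 3 libraries and below all MEF libraries, and rose by 0.92 ± 0.21. The sum of 7 fibroblast genes was 319 to 510 on day 3 and 589 to 1585 on day 10 of Cont. That of 5 macrophage genes was 376 to 1091 and 589 to 2576. The part of these sums in the Mbnl2 values was not tested. Ptbp1 fell by 1.12 ± 0.27 on the log2 scale, to 256, 231 and 195, below its day 3 libraries. Srsf7 fell by 0.67 ± 0.23 on the log2 scale, to 609, 398 and 588, a call that was lost under 5 of 14 alternatives, among them without any 1 of the day 3 libraries.

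In +Sm3CA cells, 6 splicing factors were called between day 3 and day 10, 5 higher and 1 lower, against 26.4% of all genes (14.2% higher, 12.2% lower), with a median of 0.21 for the splicing factors and 0.06 for all genes. Hnrnpdl again rose, from 56.8, 42.7 and 50.1 to 139, 146 and 172 (log2 fold change 1.61 ± 0.22, edgeR adjusted p = 5.83e-07), with no overlap. Mbnl2 went from 120, 137 and 89.7 to 167, 200 and 215 (0.75 ± 0.21), also without overlap, and Ptbp1 from 388, 612 and 608 to 217, 254 and 206 (-1.24 ± 0.27). In +Sm3CA the sum of 7 fibroblast genes was 380 to 524 on day 3 and 518 to 736 on day 10. That of 5 macrophage genes was 299 to 631 and 845 to 1546. The part of these sums in the Mbnl2 values was not tested. Rises of Hnrnpa0 (0.75), Hnrnpa3 (0.70) and Srsf11 (0.57) were each lost without day 3 replicate 2 or 3 or day 10 replicate 2 or 3, and that of Mbnl2 without day 3 replicate 3. The count depended on the libraries in the fit: with the 24 reprogramming libraries alone it was 16 (11 higher, 5 lower), with these libraries and the replicate number as a block within each series 15 (10 and 5), and with all libraries but ESC replicate 2 it was 11 (8 and 3). Tra2a, Srsf1 and Srsf2 were called higher and Srsf7 and Hnrnph2 lower under all 3 of these alternatives.

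Several regulators followed courses that were not a straight line between MEFs and ESCs. Mbnl3 had mean normalized counts of 16.5 in MEFs, 24.5, 49.1, 27.6 and 18.6 over the 4 Cont time points in order, and 7.89 in ESCs. Its day 6 libraries, at 56.1, 50.8 and 40.4, were above those of the other 3 Cont days, of MEFs and of ESCs. Ptbp2 had means of 47.6 in MEFs, 9.07, 8.85, 15.5 and 16.2 in Cont and 76.1 in ESCs, so the reprogramming groups were below both ends. Ptbp1 had means of 482, 253, 371 and 227 over the 4 Cont days, with 335 in MEFs and 389 in ESCs. Days 3 and 8 of Cont were above days 6 and 10, without overlap between neighbouring days. In +Sm3CA the means of Ptbp1 were 536, 248, 203 and 226, with no rise on day 8. Steps between neighbouring days were not tested, and the share of all genes with such steps was not computed.

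**Figure D3:**
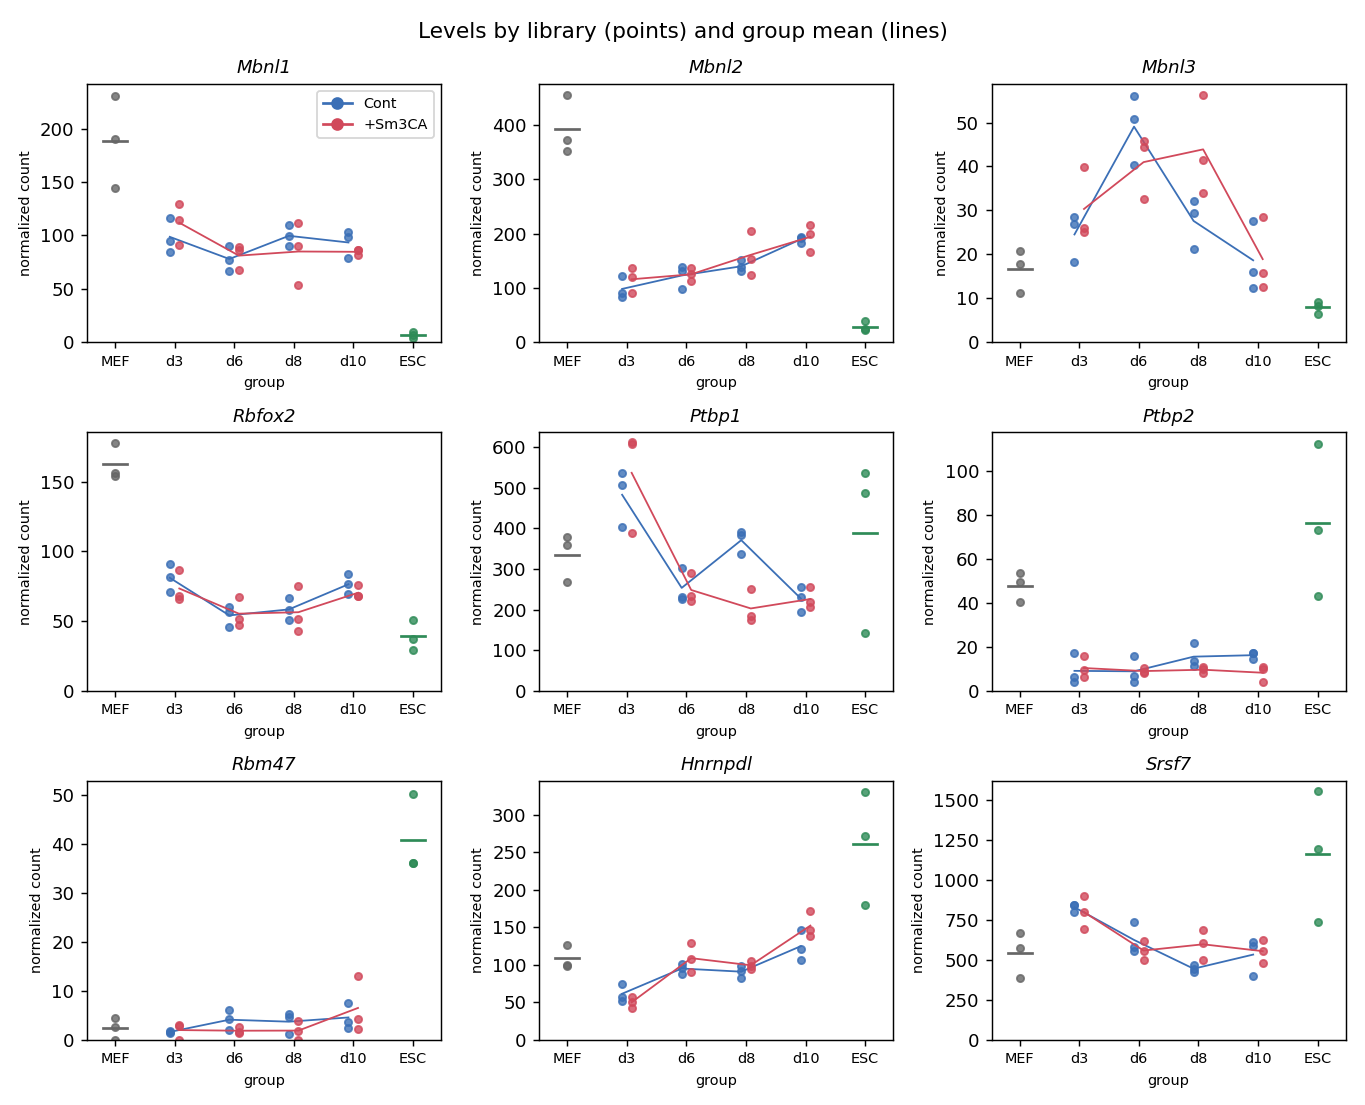
Normalized counts (vertical axis) of 9 splicing factors in MEFs, at the 4 time points (d3 to d10) of Cont (blue) and +Sm3CA (red) reprogramming, and in ESCs, with points for the 3 libraries of a group and lines through group means. Means of Mbnl1 and Rbfox2 stay between those of MEFs and ESCs, Ptbp2 is below both, Mbnl3 is highest on day 6 or day 8, and Hnrnpdl is higher on day 10 than on day 3.

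Between Cont cells of day 10 and ESCs, 34 splicing factors differed, 30 higher and 4 lower in ESCs, against 51.8% of all genes (21.5% higher, 30.3% lower). ESC libraries came from plate rows A to C with 3 wells each, and Cont day 10 libraries from rows G and H with 2. Plate row and number of wells therefore cannot be told apart from cell type here. The median log2 fold change was 1.05 for the splicing factors and -0.15 for all genes. By role, 10 of 13 SR genes and 15 of 20 hnRNP genes were called higher and 0 lower, and the 8 other regulators gave 4 calls in each direction. Without ESC replicate 2, 25 were called higher and 4 lower, and Celf1, Hnrnpa0, Hnrnpr, Hnrnpul1, Srsf9 and U2af1 lost their calls. The log2 fold changes of Hnrnpul1 and U2af1 moved from 1.36 to 0.53 and from 1.10 to 0.51.

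Of the genes that were lower in ESCs, Mbnl1 was at 79.0, 103 and 98.0 on day 10 of Cont against 6.39, 3.61 and 9.001 in ESCs (log2 fold change -3.79 ± 0.34), Mbnl2 differed by -2.80 ± 0.25, Mbnl3 by -1.22 ± 0.43 (not called without Cont replicate 2 or ESC replicate 3) and Rbfox2 by -1.01 ± 0.25. Day 10 libraries of Mbnl1, Mbnl2 and Rbfox2 lay between those of MEFs and those of ESCs. Of the genes that were higher, Rbm47 was at 2.47, 3.58 and 7.54 on day 10 (3.11 ± 0.68, or 3.75 without day 10 replicate 3), Ptbp2 at 17.3, 14.3 and 17.0 (2.18 ± 0.42), and Hnrnpd at 45.7, 64.5 and 66.9 (2.10 ± 0.26). The ESC libraries of these 3 genes were above all day 10 libraries. Srsf2 differed by 1.59 (1.00 without ESC replicate 2) and Hnrnph1 by 1.52 on the log2 scale.

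The comparison at the centre of the study, +Sm3CA against Cont on the same day, gave 0 calls among the 42 splicing factors at each of the 4 time points with edgeR and also with the DESeq2 Wald test. Among all genes, edgeR called 0.0182%, 0.00911%, 0.291% and 2.04% on these days. At an unadjusted p under 0.05 edgeR gave 1, 1, 6 and 6 splicing factors, and 3.76%, 2.89%, 11.5% and 12.8% of all genes. Exact permutation of 3 libraries against 3 cannot give a p below 0.1, so single genes were not tested that way.

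Median log2 fold changes of the splicing factors were 0.02, 0.05, 0.12 and 0.19 on days 3, 6, 8 and 10, against 0.00, 0.00, -0.02 and 0.01 for all genes. On day 10, 32 of 42 had a positive value, where 50.3% of all genes did. The libraries of +Sm3CA were all above those of Cont for 12 splicing factors on day 10 (background 8.49%) and all below for 1 (background 11.6%). The 12 were Hnrnpu, Hnrnpab, Hnrnpa3, Hnrnpr, Hnrnpd, Hnrnpa2b1, Hnrnpf, Srsf1, Srsf2, Srsf10, Srsf11 and Tra2a, and the 1 was Ptbp2. On days 3, 6 and 8, such counts were 2, 3 and 4 above (background 5.56%, 4.95% and 7.3%) and 2, 1 and 2 below (5.78%, 6.32% and 8.2%). On day 10 the sum of 7 pluripotency genes was 973 to 2221 in +Sm3CA and 385 to 941 in Cont, that of 7 fibroblast genes 518 to 736 and 589 to 1585, and the mitochondrial share of reads 20.9% to 24.3% and 15.9% to 18.9%. Their part in the day 10 values of the splicing factors was not tested.

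**Figure D4:**
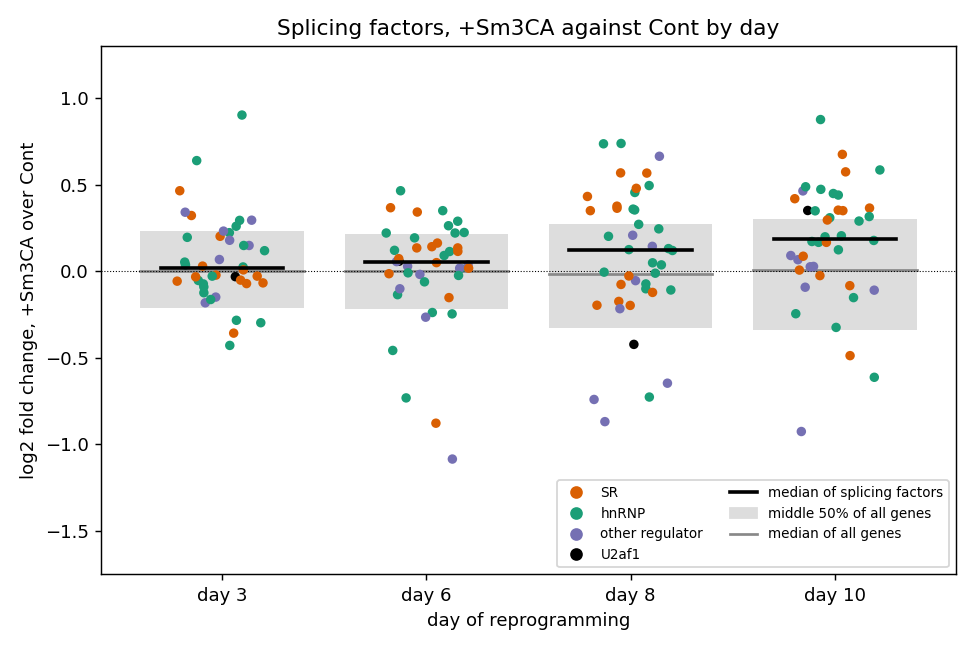
Log2 fold change of +Sm3CA over Cont (vertical axis) by day for the 42 tested splicing factors, with points coloured by role, black bars for their median, and grey boxes and lines for the middle 50% and the median of all genes. The median of the splicing factors is 0.02 on day 3 and 0.19 on day 10, within the grey box on each day.

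Hnrnpa3, a member of the hnRNP A/B family, had the largest positive difference on day 10. It was at 91.4, 110 and 107 in Cont and 150, 205 and 198 in +Sm3CA, with no overlap and a log2 fold change of 0.88 ± 0.27 (edgeR adjusted p = 0.0805). It was called with the 24 reprogramming libraries alone (edgeR adjusted p = 0.0152), without a filter on low counts (0.0154) and without ESC replicate 2 (0.0126), and its adjusted p ranged from 0.0126 to 0.268 over 13 alternatives. Reads of this gene are the least certain of the 43, as given above. The change of its difference between day 3 and day 10 was 1.00 ± 0.38 and did not pass (edgeR adjusted p = 0.316).

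Ptbp1 had the largest negative difference on day 8. It was at 337, 383 and 391 in Cont and 183, 175 and 250 in +Sm3CA, with no overlap and a log2 fold change of -0.87 ± 0.27 (edgeR adjusted p = 0.160). It was called with the 24 reprogramming libraries alone (edgeR adjusted p = 0.0131), without a filter on low counts (0.0308) and without ESC replicate 2 (0.0176), and its adjusted p ranged from 0.0131 to 0.534 over 13 alternatives. On day 6 the 2 groups overlapped for Ptbp1, with means of 253 and 248, and on day 10 as well, with means of 227 and 226. The sum of 5 glial and neural genes was 646 to 2723 (median 702) in Cont and 138 to 306 in +Sm3CA on day 8. Of these genes, Sox10 was at 0 in both groups. The part of this sum in the value of Ptbp1 was not tested.

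Ptbp2 was lower in +Sm3CA without overlap on both day 8, at 8.03, 11.03 and 9.69 against 21.5, 13.7 and 11.3 in Cont, and day 10, at 9.81, 10.9 and 3.91 against 17.3, 14.3 and 17.0. These levels rest on few reads, 3 to 10 per +Sm3CA library on day 10, and the differences did not pass. The mean of Mbnl1 was 93.3 in Cont on day 10, where +Sm3CA libraries were at 81.3, 86.3 and 85.9, within the Cont range of 79.0 to 103. Mbnl2 and Rbfox2 overlapped on each of the 4 days. The change of the difference between +Sm3CA and Cont from day 3 to day 10 was called for 0 of the 42 splicing factors (1 at an unadjusted p under 0.05, 0 by the DESeq2 Wald test), where 0.383% of all genes were called and 9.24% had an unadjusted p under 0.05.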

How the data were processed

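Gene expression was measured by STRT RNA-seq in 84 wells, which the labels assign to 10 groups of 3 biological replicates. The authors deposited a table of raw counts, with no normalization, that gives reads for 18909 genes in each well. The table used here holds reads, so PCR copies of a molecule add to the count, and counting error is all that depth covers. The submitters' processing notes name Bowtie 0.12.9, DESeq2 1.6.3 and the mm10 build. The annotation version and the use of strand are not given in the sources used here.

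Each replicate was the sum of its 3 wells (2 for day 10), which gave 30 libraries with 1008596 to 2296059 reads, and no pair of replicates was identical. All 30 libraries entered one fit in edgeR 4.0.16 (R 4.3.3) after filterByExpr and TMM scaling, and were tested by quasi-likelihood. P-values were adjusted by Benjamini-Hochberg over the 10979 genes tested, with a threshold of 0.05, and 10 comparisons were made. Standard errors are the log2 fold change divided by the square root of F. Levels are counts divided by DESeq2 1.42.0 size factors, which keep no gene length, so levels of different genes are not compared. A group with 3 reads or fewer in each library was taken as undetected. On simulated counts for ESCs against MEFs with 10979 genes of which 200 were changed, the test recovered 0 at 1.5-fold, 45 at 2-fold and 142 at 4-fold, and called 0, 6 and 7 of 10779 unchanged genes. Small changes could therefore be missed at this depth. The simulation does not set the limit for these data, where 59.6% of genes were called in this comparison. Srsf5 was called at 1.37-fold, though not under each alternative.

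The members were given by symbol, and those past the threshold were named by size of change with their close paralogs beside them. The members, the lists of other splicing genes and the markers were chosen with earlier results of these data known. Alternatives were DESeq2's size factors, the Wald test of DESeq2, no low-count filter, fewer libraries in the fit, 1 well per library, a replicate block and leaving out each replicate. The design text of the series pairs replicates over days within each series. The check correlated deviations from group means of same-numbered libraries over 8628 genes, with a mean correlation of 0.036 between days 3 and 10 of Cont and 0.018 of +Sm3CA. Positions and overlaps are from GENCODE vM21 on GRCm38 and promoters from RefSeq on GRCm38.p6, and tables and figures were made with Python 3.11.15, pandas 2.3.3 and matplotlib 3.10.9. Day 15 samples, other assays and splicing itself were not analysed here.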

Additional observations from a re-analysis of the deposited data

How the results depend on the processing

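All 88 calls of splicing factors kept their direction under the alternatives run, 63 of them kept an adjusted p under 0.05 under each alternative, and 87 of 1082 alternative values lost it. The count of splicing factors called between days 3 and 10 of +Sm3CA moved from 6 to 16 with fewer libraries in the fit, was 15 when those fewer libraries also had a replicate block within each series, and ranged from 3 (without +Sm3CA day 3 replicate 2 or 3, or day 10 replicate 2) to 11 (without ESC replicate 2) when single libraries were left out. The pairing of replicates across days thus moved this count from 16 to 15, and moved no count by over 1.5 times on its own: with the replicate block over all libraries the counts were 31 for ESCs against MEFs, 11 for Cont day 3 against MEFs, 4 for Cont day 10 against day 3, 7 for +Sm3CA day 10 against day 3, 34 for ESCs against Cont day 10 and 0 for each comparison of +Sm3CA with Cont. For +Sm3CA against Cont on days 8 and 10 the count moved from 0 to 1 without a filter on low counts, to 1 with fewer libraries in the fit and to 1 without ESC replicate 2. Leaving out that library where it is in neither group compared was an alternative chosen after seeing the data. When libraries were left out one at a time, counts ranged from 30 to 33 for ESCs against MEFs, from 10 to 16 for Cont day 3 against MEFs (16 without ESC replicate 2), from 3 to 5 for Cont day 10 against day 3, from 29 to 35 for ESCs against Cont day 10, and from 0 to 1 for +Sm3CA against Cont on days 8 and 10, and stayed at 0 on days 3 and 6. Clk1, an SR protein kinase, was not called between ESCs and Cont day 10 (log2 fold change -0.27). It ranged from -0.65 to 0.12 over the alternatives, with the sign changed without ESC replicate 2. Its adjusted p (edgeR or DESeq2) ranged from 0.0446 to 0.707 over 12 alternatives, so it was called under at least 1. The causes were not tested. DESeq2's size factors moved the median of all genes by -0.09 for ESCs against MEFs and -0.10 for Cont day 3 against MEFs. In the simulated data 0 of 200 changes of 1.5-fold were recovered, a setting with far fewer changed genes than were called in the data.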

Other observations

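Some splicing genes outside the 43 had marked courses during reprogramming. Esrp1, an epithelial regulator, had 2, 0 and 0 reads on day 3 of Cont and normalized counts of 23.5, 33.4 and 30.1 on day 10, at least 9.67-fold higher with 3 reads per library as the floor. In +Sm3CA it had 2, 0 and 2 reads on day 3 and 26.6, 39.3 and 49.5 on day 10, at least 14.1-fold higher. Day 10 values of both series overlapped those of ESCs, at 33.8, 28.9 and 48.9. The sum of 5 epithelial marker genes was 161 to 187 on day 3 and 812 to 984 on day 10 of Cont, and its part in the Esrp1 values was not tested. Its paralog Esrp2 rose between MEFs and day 3 of Cont by a log2 fold change of 3.36 ± 0.57 (edgeR adjusted p = 6.18e-06). The MEF libraries had 2, 0 and 5 reads, and the log2 fold change was 4.37 without MEF replicate 3. Unlike Esrp1, Esrp2 was low again in ESCs, with a mean of 3.23 against 2.18 in MEFs. Its means over the 4 Cont days in order were 23.3, 30.3, 14.6 and 10.1.

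Dhx16, a spliceosomal helicase, had 20.0, 8.68 and 23.3 normalized counts in MEFs, 25.9, 41.5 and 33.3 on day 3 and 60.5, 104 and 80.1 on day 10 of Cont, and 866, 453 and 723 in ESCs. It rose in each of these steps, with log2 fold changes of 1.02 ± 0.34, 1.26 ± 0.29 and 3.08 ± 0.26. The call of the first step was lost without MEF replicate 2 (0.66) and without day 3 replicate 2. The core spliceosome list as a whole had 1 gene called higher and 14 lower of 62 between days 3 and 10 of Cont, and 5 higher and 11 lower in +Sm3CA, where 10.7% and 8.35%, and 14.2% and 12.2%, of all genes were called.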
